A study of Mus musculus with 8 samples.

Results

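The 10 genes described here encode surface proteins by which haematopoietic stem cells are told from the multipotent progenitors they give rise to. They were taken by symbol from the deposited table of 54532 genes, and each symbol had 1 row. Procr, Slamf1, Esam, Tek, Robo4 and Pdzk1ip1 were treated as 6 stem cell markers, Cd48, Cd34 and Cd27 as 3 progenitor markers, and Kit, a marker of the sort itself, was kept apart. All 10 passed the filter on low counts, as did 15009 genes in all.

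RNA was sequenced from bone marrow LSK cells (lineage-negative, Sca-1+, c-Kit+) of C57BL/6 mice. There were 3 libraries from AML1/ETO mice, with the genotype Runx1-Runx1t1, and 5 from wild-type controls. AML1/ETO is the fusion of the transcription factor RUNX1 with the corepressor ETO that t(8;21) acute myeloid leukaemia carries. Both groups had been given poly(I:C), a double-stranded RNA mimic that raises interferon, in 4 injections of 5 mg/kg every other day, and the cells were sorted 4 weeks after that. The allele, the promoter and any Cre behind the fusion, and the age of the mice, do not appear in the sources used here. The labels do not say that each library is a separate animal, so p-values reflect only how far these samples spread, which may be technical.

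As background, stem and progenitor cells of the mouse LSK compartment are separated by combinations of surface proteins. Stem cells carry CD150, the product of Slamf1, and EPCR, the product of Procr, and lack CD48, while most multipotent progenitors carry CD48 and lack CD150. CD34 and CD27 are low or absent on the most primitive mouse stem cells and appear as they turn into progenitors. TIE2 (Tek), ROBO4, ESAM and PDZK1IP1 are enriched on stem cells, and TIE2, ROBO4, ESAM, EPCR and CD34 are also proteins of the vascular endothelium.

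Levels are CPM, a gene's reads divided by its library's TMM-scaled total and multiplied by 1e+06. Library totals ran from 14693080 to 17527043 counted reads, and the members had between 20 and 23682 reads in a library. Runx1t1, which encodes the ETO part, was counted 712 to 1971 times in AML1/ETO and 27 to 132 times in the controls. Of genes for which 20 to 50 reads were expected from the other libraries of the group, 41.4% to 51.1% had none in AML1/ETO, against 46.2% in control 1 and 10.5% to 27.0% in controls 2 to 5. AML1/ETO 1 stood apart from the other AML1/ETO libraries, with a mean chi-square per gene of 120.1 and 112.9 against them, where the other two differed by 67.6 and pairs of controls by 24.9 to 69.4. Xist counts were 28559 to 33151 in AML1/ETO and at most 111 in a control, and the Y-linked gene Ddx3y had none in AML1/ETO and 3688 to 5038 in the controls. By these counts the AML1/ETO libraries are female and the controls male. The fusion and sex, with whatever goes with it, therefore cannot be told apart for any gene. None of the 10 members lies on X or Y, which does not remove this limit.

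Stem cell markers did not move as a group. Procr, Slamf1 and Pdzk1ip1 rose in AML1/ETO cells, Tek and Robo4 fell, and Esam did not pass the test. Of the progenitor markers Cd48 rose and Cd34 and Cd27 did not pass, and Kit rose. In all, 5 of the 10 members rose and 2 fell (edgeR quasi-likelihood test at an adjusted p under 0.05, by Benjamini-Hochberg over all 15009 genes). Over all genes tested 11.6% rose and 14.2% fell, and 25.7% passed in either direction. The members' median log2 fold change was 1.04, beside −0.09 for all tested genes. The libraries of the 2 groups did not overlap for 7 members, 5 higher and 2 lower in AML1/ETO. Over all tested genes this held for 31.6%, with 14.1% higher and 17.5% lower. In RNA from a sorted population, fewer cells of a type and less RNA per cell cannot be told apart, and this holds for every gene below.

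**Figure D1:**
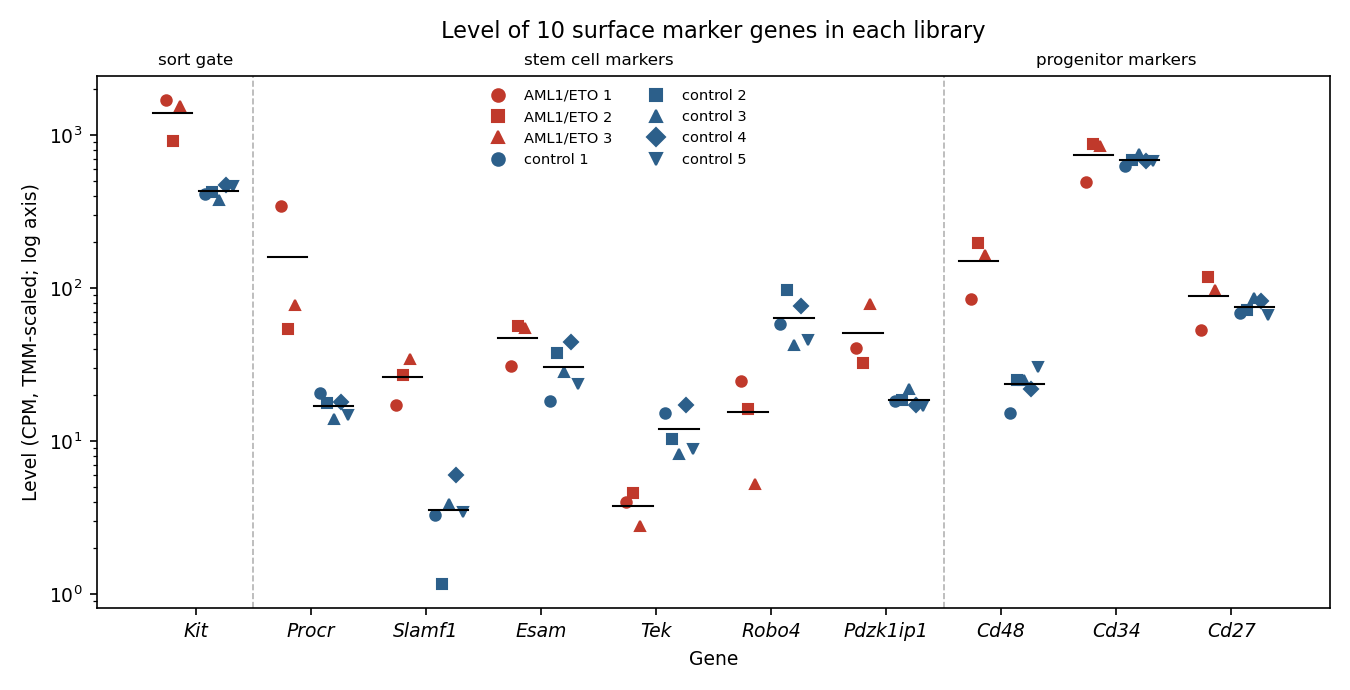
Level of each member in each library, in CPM, on a log axis. Points are libraries, AML1/ETO in red and control in blue, and short lines are group means. Slamf1 and Cd48 are high in all 3 AML1/ETO libraries, Tek and Robo4 are low in all 3, and Procr is far higher in AML1/ETO 1, at 346 CPM, than in the others.

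Kit encodes the receptor for stem cell factor, and its protein was 1 of the 2 positive markers of the sort. It stood at 1697, 913 and 1549 CPM in AML1/ETO libraries 1, 2 and 3. Controls 1 to 5 were at 413, 427, 378, 469 and 465 CPM. Every AML1/ETO library lay above every control, and AML1/ETO 2 was the lowest of the 3. Kit averaged 1386 ± 416 CPM (SD, n = 3) against 431 ± 38.0 CPM (SD, n = 5) and rose 3.22-fold (log2 fold change 1.69, SE 0.18, edgeR adjusted p = 6.23e-05). Ly6a, which encodes the other positive sort marker Sca-1, had 144 to 426 reads in the controls and 2914 to 14079 in AML1/ETO. The controls, though sorted as Sca-1 positive, held 8.26 to 23.4 CPM of Ly6a.

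Mast cells also carry KIT, and their markers moved with it. Of 12 mast cell and basophil markers 8 were tested, of which 6 rose and 1 fell. Their summed level was 2931, 4294 and 7478 CPM in AML1/ETO libraries 1, 2 and 3 and 36.8 to 90.8 CPM in the controls. Most of the sum was Cpa3, at 1771, 3627 and 6135 CPM in AML1/ETO libraries 1, 2 and 3. The markers did not share 1 order across these libraries: Cpa3 was lowest in AML1/ETO 1, while Hdc, Il1rl1 and Cma1 were, like Kit, lowest in AML1/ETO 2. Of the granule proteases, Mcpt4 and Tpsab1 had reads in AML1/ETO 1 alone and Tpsb2 in AML1/ETO 1 and 2, while Cpa3 and Cma1 had them in all 3. Prss34, a basophil protease, had none in AML1/ETO and 49 to 145 in the controls, and Mcpt8, another, overlapped between the groups and did not pass (edgeR adjusted p = 0.481). Mrgprb2, a receptor of connective tissue mast cells, had none in any library. The part of mast cell RNA in the level of Kit, or of any other member, was not tested.

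Procr encodes the endothelial protein C receptor, EPCR, whose high level marks the most potent mouse stem cells. It stood at 346, 53.8 and 78.2 CPM in AML1/ETO libraries 1, 2 and 3. In the controls it stood at 20.7, 17.8, 14.0, 17.9 and 14.9 CPM. The groups did not overlap, and AML1/ETO 1 was 6.43 times the lowest AML1/ETO library whereas the controls lay within 1.48-fold of each other. Procr rose 9.34-fold (log2 fold change 3.22, SE 0.48, edgeR adjusted p = 0.000535), from 17.05 ± 2.69 CPM (SD, n = 5) to 159 ± 162 CPM (SD, n = 3). The size of the rise rests on AML1/ETO 1. Without that library the means differed 3.87-fold, and the log2 fold change was 1.95 (edgeR adjusted p = 0.000232).

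Slamf1 encodes CD150, a homophilic receptor of the SLAM family. It was the scarcest member in the controls, at 3.28, 1.17, 3.90, 6.00 and 3.44 CPM. Control 2 had 20 reads, or 1.19 CPM on its unscaled total with an exact 95% Clopper-Pearson interval of 0.730 to 1.85, which covers counting error only. AML1/ETO libraries 1, 2 and 3 stood at 17.2, 27.1 and 34.5 CPM. Every AML1/ETO library was above every control, and the highest control was control 4. Slamf1 rose 7.37-fold (log2 fold change 2.88, SE 0.51, edgeR adjusted p = 0.00158), from 3.56 ± 1.72 (SD, n = 5) to 26.3 ± 8.70 CPM (SD, n = 3).

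Pdzk1ip1 encodes a small membrane protein that binds the scaffold PDZK1 and whose reporter labels mouse stem cells. AML1/ETO libraries 1, 2 and 3 stood at 40.9, 32.6 and 78.3 CPM. The controls were close together, at 18.2, 18.6, 22.1, 17.2 and 16.98 CPM. The groups did not overlap, although AML1/ETO 3 held more than AML1/ETO 1 or 2. Pdzk1ip1 rose 2.72-fold, from 18.6 ± 2.05 (SD, n = 5) to 50.6 ± 24.3 CPM (SD, n = 3), with a log2 fold change of 1.44 (SE 0.29, edgeR adjusted p = 0.00368). Part of this size rests on AML1/ETO 3. Without that library the means differed 1.98-fold, and the log2 fold change was 0.97 (edgeR adjusted p = 0.0305).

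Tek and Robo4 went the other way. Tek encodes TIE2, the angiopoietin receptor linked to stem cell quiescence in the niche, and stood at 4.01, 4.56 and 2.81 CPM in AML1/ETO libraries 1, 2 and 3. In controls 1 to 5 it stood at 15.3, 10.3, 8.19, 17.2 and 8.95 CPM. No AML1/ETO library reached the lowest control, and the controls fell into a higher pair, 1 and 4, and 3 lower ones. Tek fell 3.16-fold (log2 fold change −1.66, SE 0.52, edgeR adjusted p = 0.0349). This call was close to the threshold. It was lost, at edgeR adjusted p from 0.0501 to 0.1095, without any 1 of the 3 AML1/ETO libraries or of controls 1, 2, 4 and 5, and it stayed without control 3.

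Robo4 encodes a roundabout receptor that helps to hold stem cells in the marrow. It stood at 24.9, 16.2 and 5.23 CPM in AML1/ETO libraries 1, 2 and 3, a 4.76-fold range. In the controls it stood at 58.3, 97.2, 42.7, 76.6 and 45.8 CPM. The highest AML1/ETO library was below the lowest control. Robo4 fell 4.16-fold, from 64.1 ± 22.8 (SD, n = 5) to 15.4 ± 9.86 CPM (SD, n = 3), with a log2 fold change of −2.06 (SE 0.46, edgeR adjusted p = 0.00681). Without AML1/ETO 1 the log2 fold change was −2.59, and without AML1/ETO 3, the lowest library, it was −1.65 (edgeR adjusted p = 0.00942).

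Esam encodes an adhesion molecule of endothelial and stem cell junctions. It stood at 30.9, 56.7 and 55.1 CPM in AML1/ETO libraries 1, 2 and 3 and at 18.4, 37.8, 28.3, 44.6 and 23.6 CPM in the controls. The groups overlapped, with controls 2 and 4 above AML1/ETO 1. The log2 fold change of 0.64 (SE 0.32) did not pass (edgeR adjusted p = 0.165), and its 95% interval ran from −0.06 to 1.33.

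Endothelial cells share Tek, Robo4, Esam, Procr and Cd34, so the 15 endothelial markers were read beside them. Cdh5, Cldn5, Mmrn2 and Stab2 had no read in any of the 8 libraries. Zeros were frequent where few reads were expected, so a lack of reads does not show absence. Other markers on the list were counted at low numbers. For Emcn there were at most 68 per AML1/ETO library and 32 to 195 per control, and for Plvap at most 66 against 42 to 87. Sox18 reached 129 in AML1/ETO 2 and 90 in control 1. Sox17 (30 reads) and Ptprb (14 reads) were found in AML1/ETO 1 alone. Of 9 tested markers 3 rose and 2 fell. The summed level was 727 to 972 CPM in AML1/ETO and 309 to 361 CPM in the controls. The sum came largely from Egfl7 and Pecam1, which blood cells also express and which averaged 458 and 250 CPM in AML1/ETO against 58.3 and 119 CPM in the controls. The median log2 fold change of the tested markers was −0.68. Flt1 also rose, at 19.3, 95.6 and 81.4 CPM in AML1/ETO libraries 1, 2 and 3 and at most 5.22 CPM in a control (edgeR adjusted p = 0.00172). Vwf and Kdr had no read in AML1/ETO and some in every control, and the mean of Tie1 was lower without passing. The part of endothelial RNA in the levels of these members was not tested.

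Cd48 encodes the GPI-anchored SLAM protein by whose absence stem cells are gated. It stood at 85.0, 198 and 166 CPM in AML1/ETO libraries 1, 2 and 3. Controls 1 to 5 stood at 15.2, 25.1, 25.2, 22.1 and 30.5 CPM. The lowest AML1/ETO library was well above the highest control. Cd48 rose 6.34-fold (log2 fold change 2.66, SE 0.28, edgeR adjusted p = 5.23e-05), from 23.6 ± 5.59 (SD, n = 5) to 150 ± 58.4 CPM (SD, n = 3).

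Cd34 encodes the sialomucin CD34. It stood at 491, 874 and 852 CPM in AML1/ETO libraries 1, 2 and 3. Controls stood at 626, 683, 758, 673 and 675 CPM. AML1/ETO 1 lay below every control and AML1/ETO 2 and 3 above every control, so the group mean hides a split. The log2 fold change was 0.11 (SE 0.18, edgeR adjusted p = 0.721), with a 95% interval from −0.28 to 0.51. In fold terms the interval ran from 0.821 to 1.43.

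Cd27 encodes a TNF receptor family member whose ligand is CD70. It showed the same split, at 53.4 CPM in AML1/ETO 1 and at 118 and 96.5 CPM in AML1/ETO 2 and 3, around controls of 68.7, 71.7, 86.5, 82.6 and 66.5 CPM. The log2 fold change was 0.25 (SE 0.24, edgeR adjusted p = 0.507), with a 95% interval from −0.27 to 0.76. Without AML1/ETO 1 neither gene passed, at log2 fold changes of 0.33 for Cd34 (edgeR adjusted p = 0.0738) and 0.50 for Cd27 (edgeR adjusted p = 0.0620).

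CD48 and CD27 are also proteins of lymphocytes. Of 11 T and NK cell markers Cd3d, Cd3e, Cd3g, Cd8a and Ncr1 had no read in any library. The list summed to 13.0 to 14.99 CPM in AML1/ETO and 78.9 to 143.5 CPM in the controls, and of 5 tested members 2 fell and none rose. The 9 B cell markers summed to 5.30 to 10.8 CPM in AML1/ETO and 7.57 to 76.0 CPM in the controls, and of 7 tested members 5 fell and none rose. The T and NK cell sums did not overlap between the groups, while the B cell sums did. The part of lymphocyte RNA in the levels of Cd48 and Cd27 was not tested, nor was that of the mast cell RNA described above. The other lists gave 2 risen and 2 fallen of 7 tested megakaryocyte markers (317 to 1001 CPM in AML1/ETO, 353 to 505 in the controls). Of 10 tested macrophage and neutrophil markers 3 fell and none rose (40.2 to 107 against 182 to 357 CPM), and of 9 erythroid markers 1 rose and 2 fell (87.7 to 128 against 97.5 to 202 CPM). The part of these other cell types in the members' levels was not tested either.

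**Figure D2:**
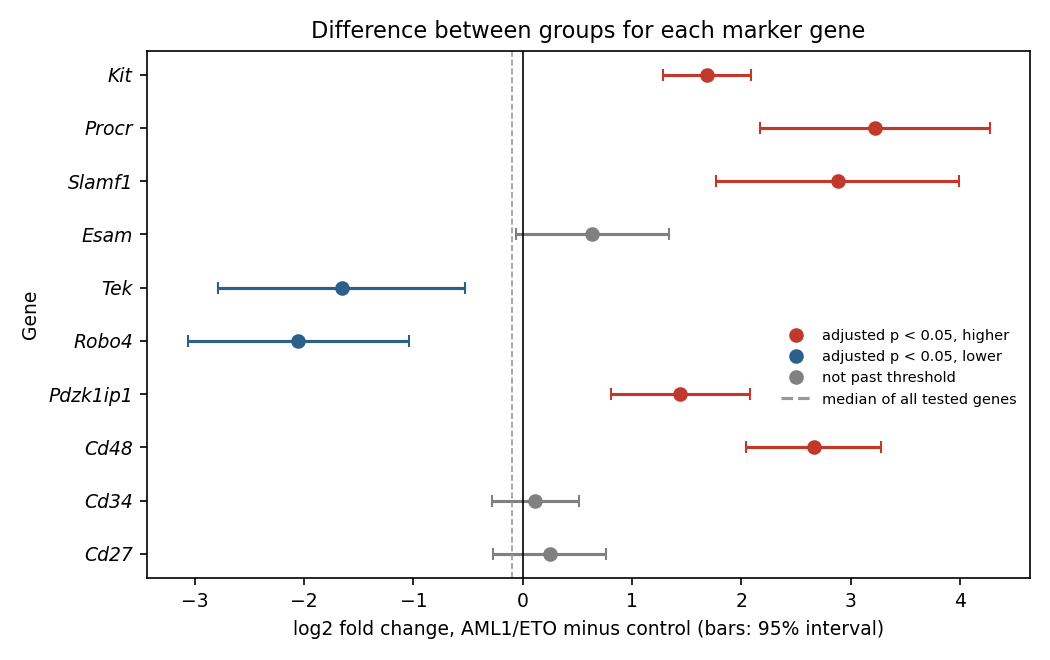
Log2 fold change of each member, AML1/ETO minus control, from edgeR, with 95% intervals as bars. Red marks genes that rose, blue genes that fell and grey genes that did not pass, and the dashed line is the median of all 15009 tested genes, at −0.09. The 6 stem cell markers from Procr to Pdzk1ip1 lie on both sides of 0.

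The contrast of stem cell with progenitor markers was then read within libraries, as the ratio of one gene's level to the other's, with 1 CPM added to each. All 18 pairs of 1 of the 6 stem cell markers and 1 of the 3 progenitor markers were formed. These ratios are descriptions without a test. In 6 pairs every AML1/ETO library was higher than every control, in 8 every one was lower, and in 4 the groups overlapped. The pairs share genes, so a gene that moved is counted in several of them. No share over pairs of other genes was computed, and among single tested genes 31.6% did not overlap. The direction turned on the gene chosen on either side. Over Cd34 and over Cd27, the ratios of Procr, Slamf1 and Pdzk1ip1 were higher in AML1/ETO, those of Tek and Robo4 lower, and that of Esam overlapped. Over Cd48, those of Tek, Robo4, Esam and Pdzk1ip1 were lower and those of Procr and Slamf1 overlapped. No stem cell marker had a ratio to Cd48 that was higher in all AML1/ETO libraries.

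Pdzk1ip1 turned over with no overlap in either direction, its mean log2 ratio being 1.23 higher in AML1/ETO over Cd34, 1.13 higher over Cd27 and lower over Cd48 with a difference of −1.26. Over Cd27 the separation was narrow, at −1.82 in AML1/ETO 2 and −1.86 in control 1.

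Slamf1 and Cd48 are the core of the SLAM gating scheme. Per 100 Cd48 reads there were 20.2, 13.6 and 20.8 Slamf1 reads in AML1/ETO libraries 1, 2 and 3. The controls had 21.5, 4.67, 15.5, 27.2 and 11.3. Both genes were several-fold higher in AML1/ETO, while their ratio stayed inside the range of the controls. Per 100 Cd34 reads, in contrast, there were 3.498, 3.10 and 4.05 Slamf1 reads in AML1/ETO and 0.524, 0.172, 0.515, 0.891 and 0.510 in the controls, with no overlap.

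The size of the ratio of Procr to Cd34 rested on 1 library. Per 100 Cd34 reads there were 70.4 Procr reads in AML1/ETO 1, 6.15 in AML1/ETO 2 and 9.18 in AML1/ETO 3. The controls had 3.31, 2.60, 1.84, 2.67 and 2.20, so all 3 were higher, but AML1/ETO 1 combined the highest Procr with the lowest Cd34. Over Cd48, AML1/ETO 1 had the highest log2 ratio of Procr of all libraries, at 2.01, while AML1/ETO 2 and 3, at −1.86 and −1.07, lay below every control. Esam over Cd34 differed little between AML1/ETO libraries, with 6.29, 6.48 and 6.47 Esam reads per 100 Cd34 reads. The controls spread from 2.94 to 6.63.

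**Figure D3:**
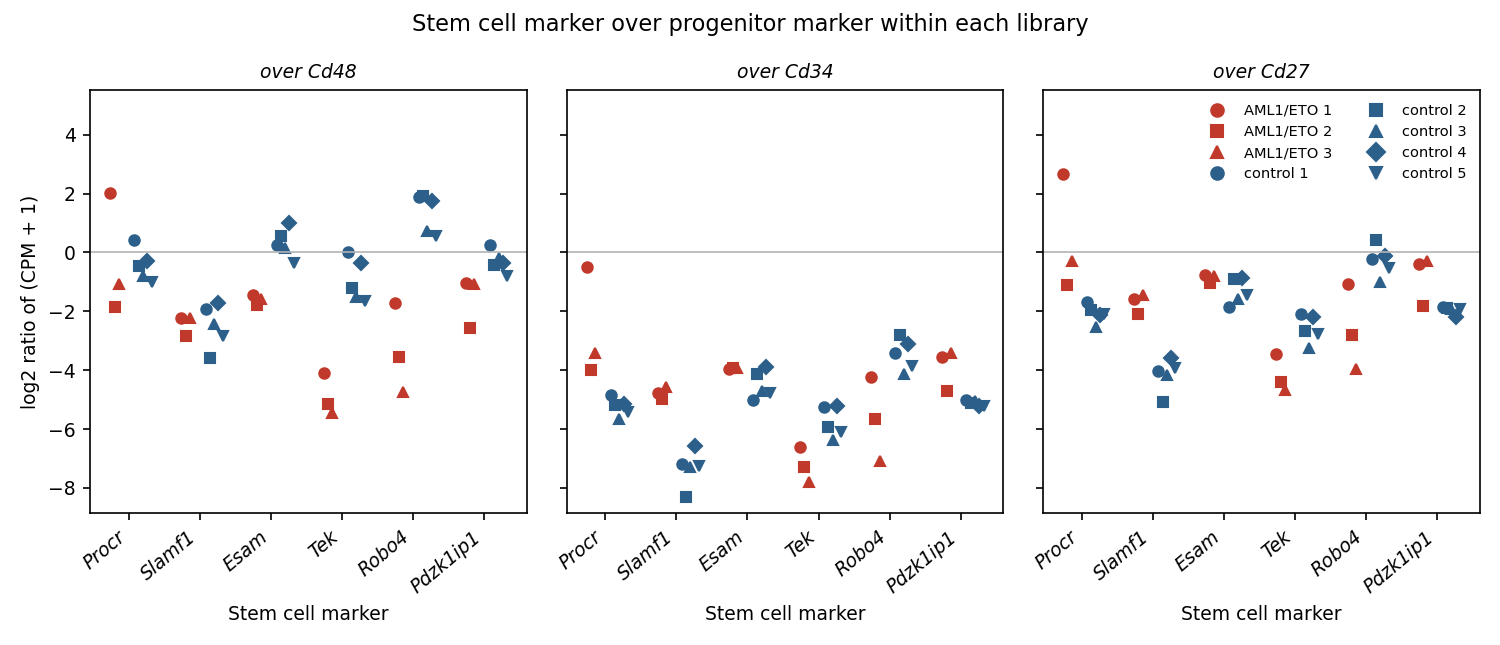
Log2 ratio of each stem cell marker to Cd48, Cd34 and Cd27 within each library, with 1 CPM added to both levels. Points are libraries, AML1/ETO in red and control in blue. Over Cd34 and Cd27 Slamf1 is higher in AML1/ETO and Robo4 lower, and over Cd48 Slamf1 overlaps, with means of −2.43 and −2.50.

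AML1/ETO 1 was the lowest of its group for Slamf1, Esam, Cd48, Cd34 and Cd27 and the highest for Kit, Procr and Robo4. AML1/ETO 2 was the lowest for Kit, Procr and Pdzk1ip1 and AML1/ETO 3 for Tek and Robo4. The coefficient of variation within AML1/ETO ran from 23.6% for Tek to 101.8% for Procr. In the controls it ran from 6.97% for Cd34 to 48.4% for Slamf1.

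Levels of different genes were compared per kilobase of exon. In the controls Cd34 was the highest member, at 93.7 ± 6.53 CPM per kilobase (SD, n = 5), followed by Kit at 48.3, Cd27 at 32.3 and Cd48 at 19.9. The ranges of Cd34, Kit, Cd27 and Cd48 did not overlap from each to the next. Robo4 at 12.1, Esam at 10.7, Pdzk1ip1 at 10.46 and Procr at 8.39 CPM per kilobase formed a middle group whose neighbours overlapped, and Cd48 overlapped with Robo4. Tek at 2.54 and Slamf1 at 0.578 CPM per kilobase were the lowest and were separate from each other. In AML1/ETO the order of these levels was Kit at 156 ± 46.7 CPM per kilobase (SD, n = 3), Cd48 at 126, Cd34 at 101, Procr at 78.4, Cd27 at 38.3, Pdzk1ip1 at 28.5, Esam at 16.6, Slamf1 at 4.26, Robo4 at 2.91 and Tek at 0.806. Of these neighbours, Esam and Slamf1 did not overlap, nor did Robo4 and Tek, and all the others did. Slamf1 thus went from the lowest place to above Robo4 and Tek, and Cd48 from the fourth place to the second. With the longest transcript in place of all exons Cd34 came before Cd48 in AML1/ETO, and Pdzk1ip1 before Esam and Robo4 in the controls.

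Cd48 (chr1:171682009-171705258 in mm10) and Slamf1 (chr1:171767127-171801184) are neighbours on the + strand of chromosome 1, with 61.9 kb between them, inside the cluster of SLAM family genes. Because the pair rose together, the genes around it were read from the same fit. This window was chosen after the values of both genes were seen. Between 300 kb on either side of the pair, 18 of 37 annotated genes were tested, of which 4 rose and 1 fell. Those 4 were all SLAM family genes, but they include Cd48 and Slamf1, whose rise was the reason for the window. Only Cd84 and Ly9 were added by it. Over all tested genes 11.6% rose and 14.2% fell. Cd84, a homophilic adhesion receptor, rose 3.08-fold (log2 fold change 1.62, SE 0.24, edgeR adjusted p = 0.000571), from 28.9 ± 7.94 CPM (SD, n = 5) to 89.1 ± 14.3 CPM (SD, n = 3). Ly9, which encodes CD229, rose 2.29-fold from 18.6 ± 6.65 to 42.6 ± 5.40 CPM (edgeR adjusted p = 0.0201). Cd244a, the receptor for CD48, did not pass, at 27.7 and 34.3 CPM (log2 fold change 0.31, edgeR adjusted p = 0.573). Ly9 lies within the span of Cd244a on the other strand, and counting without regard to strand would mix the reads of both. Slamf6 and Slamf7 had few reads, 108 and 46 over all libraries. The gene that fell was F11r, a junctional adhesion molecule (log2 fold change −1.31, edgeR adjusted p = 0.00637). Cd2, whose protein also binds CD48, had no read.

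**Figure D4:**
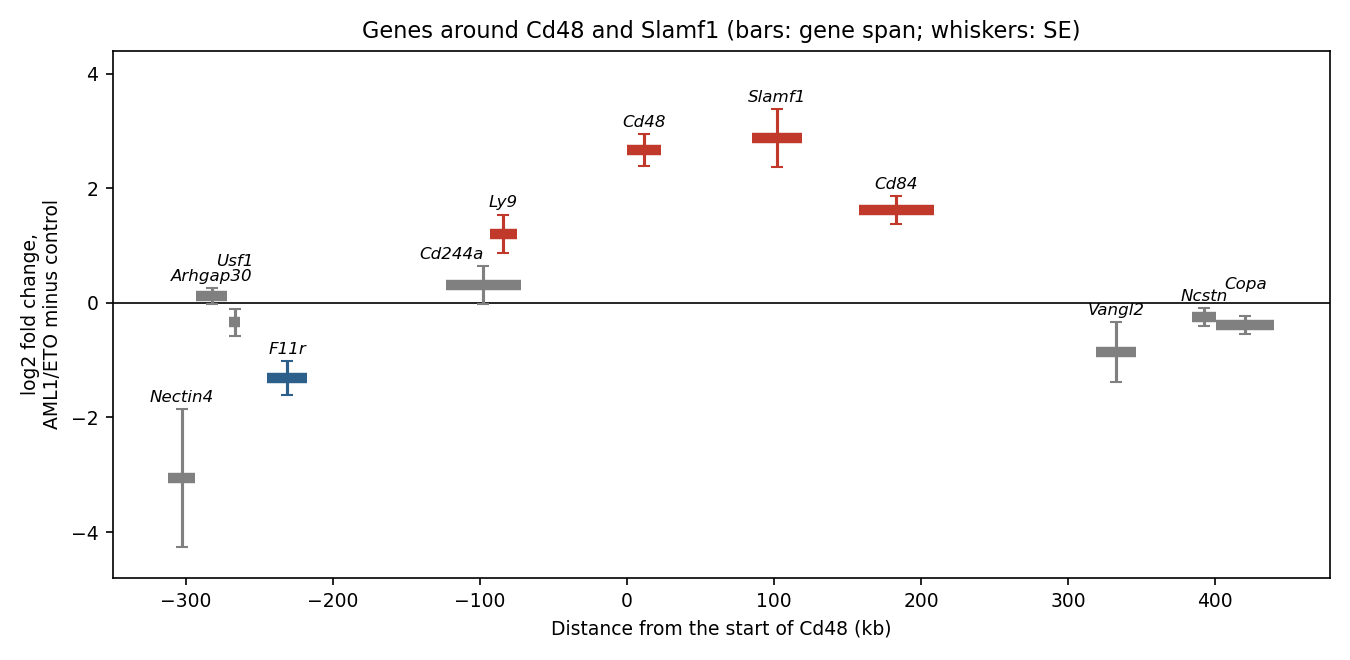
Log2 fold change of tested protein-coding genes around Cd48 and Slamf1, limited to those averaging at least 5 CPM in a group, against distance from the start of Cd48. Thick bars span each gene and whiskers are SE from edgeR. Ly9, Cd48, Slamf1 and Cd84 rose (red), F11r fell (blue), and the genes in grey did not pass.

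Robo4 (chr9:37401897-37415115) and Esam (chr9:37528078-37538319) are also close, 113.0 kb apart on chromosome 9, and did not move together. Robo3 (log2 fold change 0.33, edgeR adjusted p = 0.565) and Msantd2 (−0.82, edgeR adjusted p = 0.0756) lie between them and did not pass. The other members are spread over chromosomes 2, 4, 5, 6 and 1, with Kit at chr5:75574916-75656722, Procr at chr2:155751117-155755471, Tek at chr4:94739289-94874976, Pdzk1ip1 at chr4:115088708-115093899, Cd27 at chr6:125232622-125237010 and Cd34 at chr1:194938819-194961279. Cd34 shares 148 exonic bases, 2.03% of its exons, with Gm16897 on the other strand. Counting without strand would mix the reads of that stretch. Cd27 shares 129 exonic bases, 5.54%, with the microRNA gene Mir8113, which had no read in any library.

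The 250 bases before the start of Cd48 and Slamf1, which rose, and of Robo4 and Tek, which fell, are shown because these pairs moved in opposite directions (RefSeq, GRCm38.p6, each on its gene's strand, 5′ to 3′). Capitals mark matches on either strand to the RUNX motif, searched as TGTGGT or TGCGGT, and to the ETS motif, searched as CAGGAA or CCGGAA.
Cd48 (chr1:171681742-171681991, + strand): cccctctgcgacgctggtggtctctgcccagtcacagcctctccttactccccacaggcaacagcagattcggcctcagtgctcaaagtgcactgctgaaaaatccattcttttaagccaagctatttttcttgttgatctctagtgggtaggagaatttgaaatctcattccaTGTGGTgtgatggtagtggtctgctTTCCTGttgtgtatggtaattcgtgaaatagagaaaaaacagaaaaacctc
Slamf1 (chr1:171766882-171767131, + strand): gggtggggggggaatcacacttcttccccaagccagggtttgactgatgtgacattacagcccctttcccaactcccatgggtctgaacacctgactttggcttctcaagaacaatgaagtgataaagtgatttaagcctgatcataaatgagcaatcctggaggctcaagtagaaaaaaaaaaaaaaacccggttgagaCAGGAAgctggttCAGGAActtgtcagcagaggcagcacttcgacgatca
Robo4 (chr9:37401722-37401971, + strand): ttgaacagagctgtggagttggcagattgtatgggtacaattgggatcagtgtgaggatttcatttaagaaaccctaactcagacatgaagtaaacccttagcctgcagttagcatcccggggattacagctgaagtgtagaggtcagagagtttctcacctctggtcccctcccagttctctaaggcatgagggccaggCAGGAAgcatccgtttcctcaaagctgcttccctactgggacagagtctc
Tek (chr4:94739039-94739288, + strand): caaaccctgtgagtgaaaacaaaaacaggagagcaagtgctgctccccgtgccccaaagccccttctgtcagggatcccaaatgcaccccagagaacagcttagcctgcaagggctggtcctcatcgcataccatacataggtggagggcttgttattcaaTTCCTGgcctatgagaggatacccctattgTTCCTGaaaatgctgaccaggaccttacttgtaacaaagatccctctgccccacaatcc
Of the 9 members with an entry, Cd48 alone held a RUNX match, which began 76 bases before its start, against 18.6% of 32851 promoters of the same length. An ETS match was present in 5 of 9, namely Cd48, Slamf1, Robo4, Tek and Cd34, against 35.1% of all promoters. No member held the GATA motif AGATAA, which 3281 of all 32851 promoters held, and no RUNX match overlapped an ETS match. A match describes letters in this window and not a bound site.

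Genes that act with the members were read from lists by role. Of 20 tested genes of KIT signalling 6 rose and 5 fell, with a median log2 fold change of 0.07, and Kitl, the KIT ligand, was nearly absent with 28 and 42 reads in 2 controls and none elsewhere. Stat5a and Stat5b, transcription factors activated downstream of KIT, rose 1.77-fold (log2 fold change 0.83, edgeR adjusted p = 0.000966) and 1.72-fold (0.78, edgeR adjusted p = 0.00327). Cblb, a ubiquitin ligase that limits receptor signalling, rose 3.18-fold from 31.8 ± 10.98 CPM (SD, n = 5) to 101 ± 23.5 CPM (SD, n = 3). Dok2, an adaptor that binds both TIE2 and KIT, was counted 0, 30 and 0 times in the AML1/ETO libraries and 446 to 823 times in the controls (log2 fold change −5.90, edgeR adjusted p = 0.00120).

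Of 4 tested genes of the TIE2 list 1 fell, Dok2, and none rose. The ligand gene Angpt1 (53.1 ± 42.7 CPM, SD, n = 3, against 132 ± 38.5 CPM, SD, n = 5, edgeR adjusted p = 0.0632) and the partner receptor gene Tie1 (50.6 ± 36.8 against 105 ± 21.6 CPM, edgeR adjusted p = 0.0815) had lower means without passing. Of 9 tested ROBO and SLIT genes 2 rose and 3 fell, with a median log2 fold change of −0.34. Unc5b, a netrin receptor that binds ROBO4, had no read in AML1/ETO and stood at 16.7 ± 3.42 CPM in the controls (edgeR adjusted p = 2.84e-05). With a floor of 3 reads set for each AML1/ETO library it was 82.2-fold lower. That floor allows for counting error only and not for the frequent zeros of these libraries, so it is not a bound. Cxcr4, the chemokine receptor of marrow retention, fell 4.06-fold (edgeR adjusted p = 1.26e-05). Srgap1, a GTPase-activating protein of the SLIT-ROBO pathway, rose from 4.95 ± 2.63 to 100.1 ± 23.9 CPM (edgeR adjusted p = 1.57e-05).

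Of 7 tested genes around protein C and thrombin 1 rose and 1 fell: F2r, the thrombin receptor PAR1 through which EPCR-bound protein C signals, fell 3.30-fold from 554 ± 81.3 to 168 ± 22.3 CPM (edgeR adjusted p = 3.04e-05), and F3, tissue factor, rose to 12.7 ± 9.03 from 1.19 ± 1.16 CPM (edgeR adjusted p = 0.0370). Of 7 tested genes of CD27 signalling 2 rose and 2 fell, with a median log2 fold change of −0.40. The inhibitors of apoptosis Birc2 (3.04-fold) and Birc3 (2.23-fold) rose, while the adaptor Traf3 (2.48-fold) and Siva1 (2.42-fold), which binds the CD27 tail, fell. Cd70, the CD27 ligand, had no read in any library. Of 6 tested genes of the CD34 family, its ligands and adaptors 3 fell and none rose. Among them Selp, which encodes P-selectin, had 1, 145 and 15 reads in AML1/ETO and 514 to 783 in the controls (edgeR adjusted p = 0.0161). Its AML1/ETO mean lay mostly in AML1/ETO 2. The adaptor gene Crk fell 1.58-fold (edgeR adjusted p = 0.0255). Of 6 tested junction relatives of ESAM 1 rose, Tjp1, and 2 fell, F11r and Jam2. Of the PDZK1IP1 partners only Smad4 was tested, and it did not pass (edgeR adjusted p = 0.525), and Pdzk1 had no read.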

How the data were processed

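The deposited values are raw read counts per Ensembl gene in 8 libraries, 1 column each. HISAT2 2.0.5 and featureCounts 1.5.0-p3 are listed with mm10, per the submitters' processing notes. The annotation release, strand setting and treatment of duplicates and multiply aligned reads were not given in these sources. No sample column was left unused.

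Counts were filtered with filterByExpr, scaled by TMM and compared between the groups with the quasi-likelihood test of edgeR 4.0.16 in R 4.3.3, without covariates, two-sided, with Benjamini-Hochberg adjustment over 15009 genes and a threshold of 0.05. Standard errors come from the F statistic. The procedure was tested on simulated counts. Positions and exon lengths are from GENCODE M21, and promoters from RefSeq. Ratios used CPM + 1. Replicate numbers showed no evident pairing: deviations of same-numbered libraries correlated at 0.04, −0.03 and 0.03 for numbers 1, 2 and 3. Libraries of different number correlated at −0.094 to 0.071. With 3 libraries a group the check is weak and cannot exclude pairs.

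The members and gene lists were chosen with earlier results of these data known. All 10 members are named, with up to 4 called genes per partner list by smallest p at a mean of 5 CPM or more. Other partners, such as ligands and neighbours in the genome, were named after their values were seen. Alternatives were limma-voom (limma 3.58.1, with quality weights), DESeq2 1.42.0, scaling by upper quartile, by the totals alone or by DESeq2 size factors, 2 other filters, each library left out, both first libraries left out and the replicate number as a block.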

Additional observations from a re-analysis of the deposited data

How the results depend on the processing

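The 5 members that rose did so under all 18 alternatives, and Robo4 fell under all 18. The count of members that fell was 1 instead of 2, because Tek was lost, with limma-voom (adjusted p = 0.156), without the filter on low counts (0.0856), and without both first libraries (0.0648). With 1 library left out in turn 1 to 2 members fell, and Tek was lost in each case but control 3. Tek kept its direction throughout, with log2 fold changes from −1.82 to −1.46. Members that did not pass reversed in sign: Cd34 to −0.024 with library totals alone, −0.031 without AML1/ETO 2 and −0.0080 without AML1/ETO 3, and Cd27 to −0.010 without AML1/ETO 2. With 1 library left out in turn Cd34 ranged from −0.031 to 0.33 and Cd27 from −0.010 to 0.50. Esam did not pass under any alternative (adjusted p from 0.0698 to 0.361). Over all genes 1734 rose and 2128 fell. With the replicate number as a block, on libraries 1 to 3 of each group, 1043 rose and 939 fell, and 5 members rose and 1 fell, with Tek lost. The same 6 libraries without the block, an alternative chosen after seeing the data, gave 1213 and 1108 genes and 5 and 1 members. Leaving out 1 library gave 1385 to 1752 risen and 1537 to 2287 fallen genes. Risen genes made up 44.9% of those called, and from 34.2% with library totals alone to 52.6% with the block, passing 50% also with limma-voom (51.3%), without control 2 (50.1%) and on the 6 libraries without the block (52.3%). Scaling by library totals moved the median over all genes by −0.15, limma-voom by −0.12 and testing without the filter by −0.16. Of the 18 ratio pairs, 5 to 7 were higher and 6 to 9 lower across pseudocounts and left-out libraries, against 6 and 8. Levels per kilobase moved with the transcript length used. Slamf1 in control 2, at 20 reads, is the member most limited by depth.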

Other observations

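Of 14 further genes reported on stem cells, all of them tested, 4 rose and 4 fell, with a median log2 fold change of −0.40 beside −0.09 for all genes. Cd9, a tetraspanin, fell 11.3-fold from 78.4 ± 6.23 CPM (SD, n = 5) to 6.90 ± 2.47 CPM (SD, n = 3) (edgeR adjusted p = 4.88e-06). Vldlr, a lipoprotein receptor, fell 9.52-fold, and Adgrg1, the adhesion receptor GPR56, fell 2.43-fold from 1898 ± 171 CPM to 781 ± 28.1 CPM (edgeR adjusted p = 3.43e-05).

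Of 10 further genes of progenitor surfaces, all tested, 4 rose and 4 fell, with a median of 0.61. Csf2rb, a shared subunit of several cytokine receptors, rose 4.94-fold, Fcgr3, an Fc receptor of myeloid progenitors, 5.32-fold, and Cd37, a tetraspanin of leukocytes, 2.36-fold. Il6ra, the IL-6 receptor, fell 8.23-fold from 129 ± 5.14 to 15.7 ± 10.7 CPM (edgeR adjusted p = 0.000116). Flt3, the cytokine receptor that marks lymphoid-primed multipotent progenitors, was looked up after the values were seen and rose 1.84-fold, from 281 ± 58.9 to 517 ± 96.8 CPM (edgeR adjusted p = 0.00548).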
